A study of Mus musculus with 12 samples.

Results

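A set of 9 genes that copy or remove DNA methylation was followed by RNA sequencing through 2 lines of mouse embryonic stem cells (mESCs) grown in serum or 2i. They were chosen by name for their known roles: Dnmt1, Uhrf1, Uhrf2 and Usp7 in the maintenance of methylation, and Tet1, Tet2, Tet3, Tdg and Mbd4 in its oxidation and excision. These 9 were among 39017 genes in the deposited table, and all 9 passed the filter on low counts together with the rest of the 17885 genes tested. The 12 libraries formed 4 groups of 3 biological replicates: J1 serum, J1 2i, 3B3-3l serum and 3B3-3l 2i. J1 is a wild-type male mESC line. The 3B3-3l line carries null alleles of Dnmt3a and Dnmt3b and expresses transgenes of Dnmt3b and of Flag-tagged Dnmt3l from the constitutive CAG promoter, the latter selected with blasticidin. Serum medium held fetal calf serum and LIF, and 2i medium was N2B27 with the MEK inhibitor PD0325901, the GSK3 inhibitor CHIR99021 and LIF. The labels give more LIF in 2i than in serum and the study's methods give the same amount in both. The J1 serum cultures were kept on feeders, which were then depleted, and 3B3-3l cultures on gelatin, so the growth surface and the line cannot be told apart in serum. The study's methods name feeders for J1 in serum only, so within J1 the medium and the feeders cannot be told apart either. The difference of the 2i responses between the lines carries the same limit. The study built the 3B3-3l line, called 3B3L there, to separate the change of medium from the loss of DNA methylation that goes with it.

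During DNA replication, methylation is copied onto the new strand by DNMT1. UHRF1 binds hemimethylated CpG sites and brings DNMT1 to them, and USP7 is a deubiquitinase that binds both proteins. UHRF2 resembles UHRF1 in its domains but is not able to replace it in maintenance. The TET dioxygenases oxidise 5-methylcytosine, and TET1 and TET2 are the forms known to predominate in mESCs, whereas TET3 is best known from the oocyte and zygote. TDG excises the most oxidised bases and MBD4 excises thymine from deaminated methylcytosine, after which base excision repair restores cytosine. Naive mESCs in 2i are known for low global methylation, and loss of maintenance, loss of de novo methylation and TET oxidation have all been considered as routes to that state. Each value here is RNA abundance in a bulk lysate, in which fewer expressing cells and less RNA per cell cannot be told apart, and protein was not measured.

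Libraries held 37050652 to 44515395 estimated reads, a depth at which 3 counts correspond to 0.0674 to 0.081 CPM (counts scaled to library size). Values are CPM, means are given ± SD over 3 libraries, and fold changes are on the log2 scale with their standard error (SE). The edited genes followed the labels in 2i, as Dnmt3b stood at 44.1 ± 3.12 CPM in J1 2i and 928.1 ± 12.7 CPM in 3B3-3l 2i, Dnmt3l at 52.84 ± 4.26 and 289.8 ± 4.57 CPM, and Dnmt3a at 41.49 ± 2.78 and 4.666 ± 0.585 CPM. In serum, Dnmt3a stood at 166.4 ± 0.785 CPM in J1 and still at 32.08 ± 2.5 CPM in 3B3-3l. Within 3B3-3l, Dnmt3l was lower in 2i than in serum (484.6 ± 32.9 CPM), by 0.74 ± 0.059 on the log2 scale (edgeR adjusted p = 1.37e-08). The summed level of 8 mESC markers was 4480 to 4510 CPM in J1 serum and 3830 to 4340 CPM in J1 2i, and 3980 to 4450 CPM in 3B3-3l serum and 4610 to 4750 CPM in 3B3-3l 2i, so it was lower in 2i in J1 and higher in 3B3-3l, without overlap. In J1 2i 2 of these markers were called higher and 5 lower (33.2% and 32.9% of all genes), with folds down to 0.317 for Utf1. In 3B3-3l 2i 3 were called higher and 4 lower (32.7% of all genes in each direction), while Pou5f1 was called in neither line. The summed level of 12 fibroblast markers was 85 to 139 CPM in serum and 32.1 to 45.1 CPM in 2i, and it was not lower on gelatin (119 to 139 CPM in 3B3-3l serum) than after growth on feeders (85 to 93.4 CPM in J1 serum). Of these 12, 10 passed the filter. In J1 2i 9 were called lower (32.9% of all genes) and Pdgfrb higher (3.08-fold, edgeR adjusted p = 5.85e-10, beside 33.2% of all genes). In 3B3-3l 2i 9 were called lower (32.7% of all genes). Dcn had 0 reads in J1 2i and Lox and Dcn had 0 reads in 3B3-3l 2i, and the others on the list kept reads. Replicates of a group differed by more than sampling noise in every pair. The part of other cell types in the media differences was not tested.

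RefSeq promoter windows of GRCm38.p6, which run from 250 bases before to 50 bases after an annotated start, were matched for 9 of the 9 genes and gave 12 windows. They were searched on both strands for 4 E2F words (TTTCCCGC, TTTGGCGC, TTTCGCGC and TTTGCCGC), an ETS word (CCGGAAGT) and a TCF word (CTTTGAT). A start window of Dnmt1 and another of Uhrf1 were the 2 windows with an E2F word, against 2.26% of all 32851 windows. No member window held the ETS word (3.89% of all windows) or the TCF word (3.73%). Those 2 windows belong to the pair of maintenance genes that rose in 2i in both lines. Both lie inside the RefSeq spans of their genes, which begin at 20959888 for minus-strand Dnmt1 and at 56303337 for Uhrf1. The windows at those outermost starts held no E2F word. Which starts of Dnmt1 and Uhrf1 were used was not tested. Tet2 and Mbd4 rose in both lines as well, and their windows held no E2F word. The 2 windows with an E2F word are shown in the direction of transcription with the E2F words in capitals.
Dnmt1, chr9:20952574-20952873, minus strand: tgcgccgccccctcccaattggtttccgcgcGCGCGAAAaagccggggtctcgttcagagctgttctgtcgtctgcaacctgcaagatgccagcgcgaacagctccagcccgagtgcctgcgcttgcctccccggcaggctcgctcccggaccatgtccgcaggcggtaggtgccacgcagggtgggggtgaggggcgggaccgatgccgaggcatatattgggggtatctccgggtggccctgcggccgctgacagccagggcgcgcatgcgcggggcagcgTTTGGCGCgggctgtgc
Uhrf1, chr17:56304063-56304362, plus strand: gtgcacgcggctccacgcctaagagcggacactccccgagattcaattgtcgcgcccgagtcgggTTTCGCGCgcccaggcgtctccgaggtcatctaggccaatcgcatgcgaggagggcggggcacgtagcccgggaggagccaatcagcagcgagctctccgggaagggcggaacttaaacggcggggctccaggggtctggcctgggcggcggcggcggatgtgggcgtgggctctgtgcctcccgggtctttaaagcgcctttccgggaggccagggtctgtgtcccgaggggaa
In the Dnmt1 window the word TTTGGCGC lies on the gene strand and TTTCGCGC on the other strand, and in the Uhrf1 window TTTCGCGC lies on the gene strand. Both windows hold 33 CpG sites, against a median of 7 over all windows. Each E2F word holds a CpG, and the 2.26% of all windows was not matched for CpG number. The windows of Tet3 and Mbd4 are shown because these 2 genes responded to 2i differently in the 2 lines, here with each CpG site in capitals.
Tet3, chr6:83441629-83441928, minus strand: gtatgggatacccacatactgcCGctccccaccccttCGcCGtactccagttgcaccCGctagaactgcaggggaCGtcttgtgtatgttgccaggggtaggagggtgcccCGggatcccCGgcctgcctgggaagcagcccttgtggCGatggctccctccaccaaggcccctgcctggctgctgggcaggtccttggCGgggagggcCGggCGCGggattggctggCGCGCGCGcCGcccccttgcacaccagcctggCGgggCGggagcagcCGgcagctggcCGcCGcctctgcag
Mbd4, chr6:115853292-115853591, minus strand: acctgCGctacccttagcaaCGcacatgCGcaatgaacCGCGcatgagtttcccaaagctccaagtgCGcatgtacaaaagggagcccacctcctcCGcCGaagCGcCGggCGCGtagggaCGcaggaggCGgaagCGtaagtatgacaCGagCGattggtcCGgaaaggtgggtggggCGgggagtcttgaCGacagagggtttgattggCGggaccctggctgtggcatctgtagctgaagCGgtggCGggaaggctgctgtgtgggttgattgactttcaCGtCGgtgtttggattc
The Tet3 window holds 22 CpG sites and the Mbd4 window 25. The Tet3 window lies inside the RefSeq span of this minus-strand gene, which reaches to 83457208. It also overlaps the gene B230319C09Rik (83441755 to 83448322). Which start of Tet3 was used was not tested. The other members ranged from 17 CpG sites at Tet1 to 63 at Usp7, apart from the remaining starts of Dnmt1 and Uhrf1, which hold 2 or 12. A word match describes the letters of a window, and neither factor binding nor methylation was measured here.

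Transfer to 2i moved these genes in both directions. In J1 cells all 9 were called at an edgeR adjusted p under 0.05, beside 66.1% of all genes tested. Of these, 5 were higher in 2i (Dnmt1, Uhrf1, Tet2, Tet3 and Mbd4, beside 33.2% of genes) and 4 were lower (Uhrf2, Tet1, Tdg and Usp7; 32.9% of genes). In 3B3-3l cells 7 were called, beside 65.4% of genes: Dnmt1, Uhrf1, Tet2 and Mbd4 were higher (32.7% of genes) and Uhrf2, Tet3 and Tdg were lower (32.7% of genes). The median absolute log2 change of the members was 0.53 in J1 and 0.46 in 3B3-3l, where that of all genes was 0.44 and 0.43. Dnmt1, Uhrf1, Tet2 and Mbd4 rose and Uhrf2 and Tdg fell in both lines, Tet1 and Usp7 passed the test in J1 and not in 3B3-3l, and Tet3 changed in opposite directions.

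**Figure D1:**
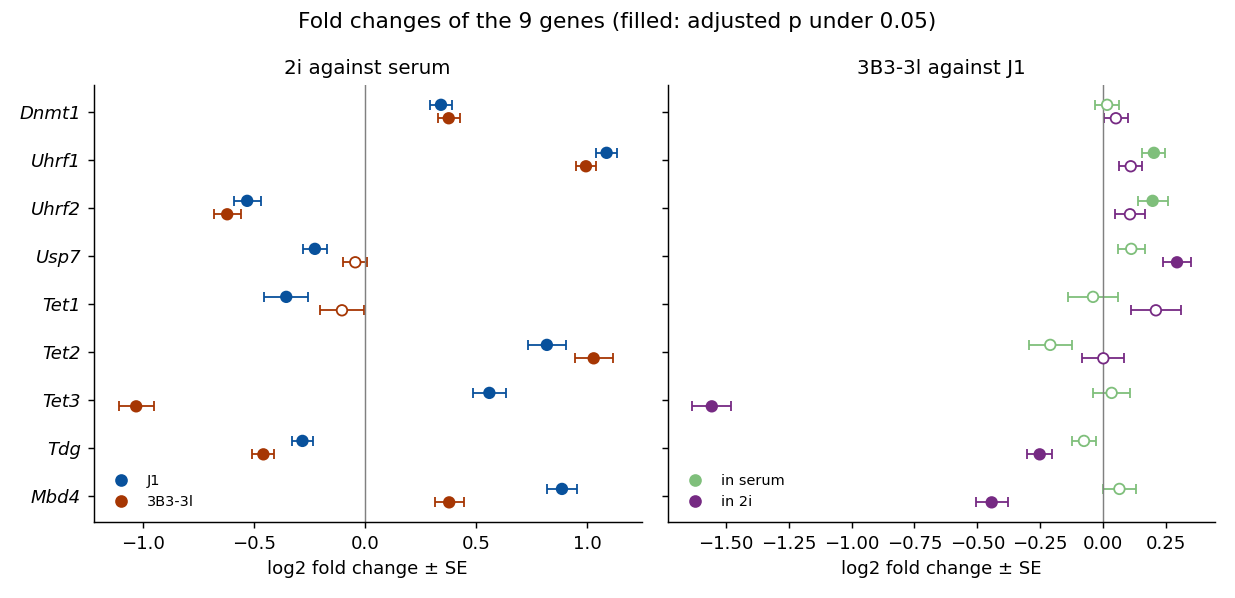
Log2 fold changes with SE bars from the edgeR fit to 12 libraries, for 2i against serum in each line (left) and 3B3-3l against J1 in each medium (right); filled points have an adjusted p under 0.05. Tet3 stands at 0.56 in J1 and -1.03 in 3B3-3l on the left and is the lowest point on the right, at -1.56 in 2i.

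Gene positions are on GRCm38.p6. Uhrf1 (chromosome 17, 56303337 to 56323486, ENSMUSG00000001228) showed the largest rise of the maintenance genes. Its levels were 394.9, 378.5 and 396.2 CPM in J1 serum against 826.3, 812.5 and 846.6 CPM in J1 2i. In 3B3-3l cells they were 470.6, 443.9 and 430.9 CPM in serum against 877.3, 906.1 and 898.3 CPM in 2i. No 2i library of either line overlapped a serum library, and the fold was 2.13 in J1 (edgeR adjusted p = 8.36e-12) and 1.99 in 3B3-3l (adjusted p = 1.92e-11). The difference between these 2 responses was -0.09 ± 0.065 (SE) on the log2 scale and did not pass the test (adjusted p = 0.292). In serum, Uhrf1 was higher in 3B3-3l than in J1 by 0.20 ± 0.046 (adjusted p = 0.00259). In 2i the lines differed by 0.11 ± 0.046, which did not pass the test (adjusted p = 0.0615), although the CPM ranges did not overlap. It passed in 3 alternatives, with the DESeq2 Wald test (adjusted p = 0.0476) and without J1 2i replicate 3 or 3B3-3l serum replicate 1, over a range of 0.0431 to 0.288.

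Dnmt1 (chromosome 9, 20907206 to 20959888, ENSMUSG00000004099) rose with it, by less. It was measured at 375.8, 336.8 and 381 CPM in J1 serum and at 464.2, 461 and 460.6 CPM in J1 2i. The 3B3-3l libraries held 373.9, 366.2 and 365.4 CPM in serum and 468.5, 485.5 and 481.6 CPM in 2i. The media did not overlap in either line. The rise was 1.27-fold in J1 (adjusted p = 1.32e-05) and 1.3-fold in 3B3-3l (adjusted p = 4.36e-06), and the 2 responses differed by 0.04 ± 0.069 on the log2 scale (adjusted p = 0.729). J1 serum replicate 2 was the lowest library of its group.

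DNA replication genes were examined beside this pair, because both are known to be transcribed with S phase. Of 13 S-phase genes, 11 were called higher in 2i in J1 (33.2% of all genes) and 11 in 3B3-3l (32.7% of all genes), Mcm7 was called in neither line, and the list had medians of 0.29 in each line where the median of all genes was 0.01. Rrm2, a subunit of ribonucleotide reductase, rose by 0.76 ± 0.041 in J1 and 0.39 ± 0.041 in 3B3-3l. Ccne1, the cyclin of S-phase entry, was the S-phase gene that fell in both lines, by 0.76 ± 0.064 and 1.22 ± 0.065 on the log2 scale. The part of the cell cycle in the levels of Dnmt1 and Uhrf1 was not tested.

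Uhrf2 (chromosome 19, 30030430 to 30093726, ENSMUSG00000024817) moved against its paralogue. Its levels were 47.36, 42.81 and 48.94 CPM in J1 serum and 32.54, 32.11 and 31.61 CPM in J1 2i. In 3B3-3l they were 50.15, 55.07 and 54.2 CPM in serum and 36.33, 32.76 and 34.63 CPM in 2i. All 2i libraries lay below all serum libraries in both lines. It fell by 0.53 ± 0.061 on the log2 scale in J1 (adjusted p = 1.26e-06) and by 0.62 ± 0.061 in 3B3-3l (adjusted p = 1.82e-07). Once transcript lengths entered the J1 fit as offsets the fall was 0.20 with an adjusted p of 0.0766, over a range of 1.55e-15 to 0.0766 among the alternatives.

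The balance of the UHRF pair shifted with both genes. In CPM per kb of effective length, Uhrf1 stood at 123.4 ± 3.11 in J1 serum and 265.7 ± 2.17 in J1 2i, and Uhrf2 at 15.22 ± 0.323 and 13.36 ± 1.18. In 3B3-3l, Uhrf1 stood at 144.6 ± 6.12 in serum and 283.4 ± 3.78 in 2i, and Uhrf2 at 17.79 ± 2.45 and 12.62 ± 0.965. Per unit of transcript length, Uhrf2 made up 11% ± 0.304 (SD, n = 3) of the summed Uhrf1 and Uhrf2 level in J1 serum and 4.78% ± 0.377 in J1 2i. In 3B3-3l it made up 11% ± 1.53 in serum and 4.27% ± 0.363 in 2i. Over both lines the share decreased by 6.45 percentage points in 2i (exact two-sided permutation test of media within lines, p = 0.005, the smallest that its 400 arrangements allow; adjusted p = 0.0133 over 8 share tests). The lines differed by -0.266 percentage points, 3B3-3l minus J1, which did not pass the exact permutation test (p = 0.65).

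Usp7 (chromosome 16, 8688722 to 8757067, ENSMUSG00000022710) passed the test of media in J1 and not in 3B3-3l. It stood at 508.3, 512.1 and 520.6 CPM in J1 serum and at 417.5, 462.9 and 437.1 CPM in J1 2i, without overlap. The 3B3-3l libraries held 515.5, 558.1 and 592 CPM in serum and 531.9, 545.9 and 537.8 CPM in 2i, where the ranges overlapped. The J1 fall of 0.23 ± 0.054 passed the test (adjusted p = 0.00157), with length offsets it was 0.14 (adjusted p = 0.0573; 6.99e-05 to 0.0573 over the alternatives), and the 3B3-3l change of -0.04 ± 0.054 did not pass (adjusted p = 0.491). The difference between the lines, 0.18 ± 0.076, also failed it (adjusted p = 0.0759).

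**Figure D2:**
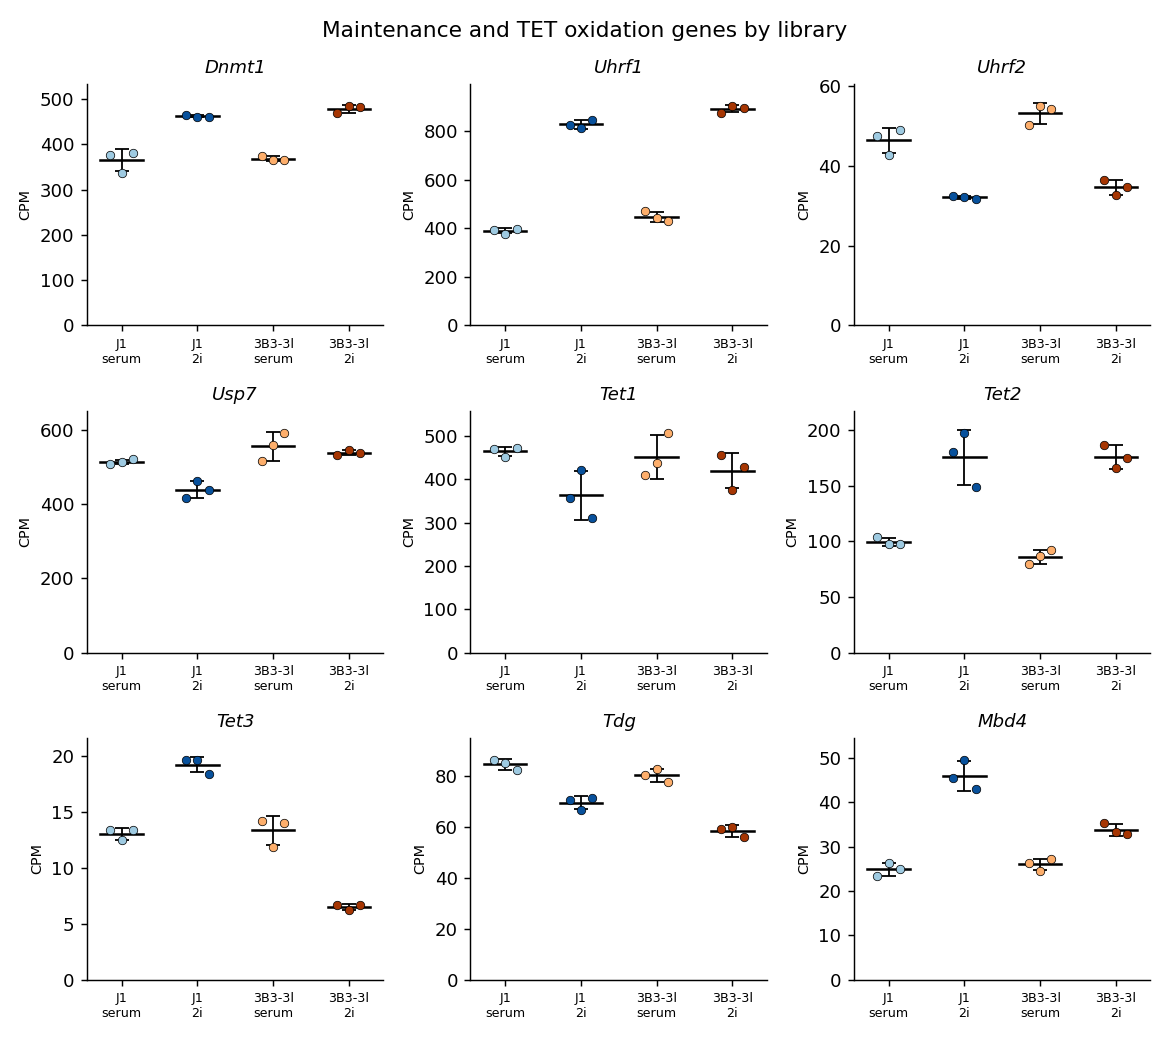
CPM of the 9 genes in the 12 libraries, with points for libraries, a line for the group mean and a bar for the SD (n = 3); each axis starts at 0. The serum groups of the 2 lines lie close together for most genes, and the 2i groups separate most for Tet3, at 18.41 to 19.62 CPM in J1 and 6.232 to 6.704 CPM in 3B3-3l.

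The 3 TET genes each followed a course of their own. Tet1 (chromosome 10, 62804570 to 62887469, ENSMUSG00000047146) had the highest level of the 3 per transcript length in all groups. In CPM it was read at 469.1, 451.6 and 471.5 CPM in J1 serum and at 355.9, 422.2 and 310.6 CPM in J1 2i. The 3B3-3l libraries held 409.7, 437.3 and 507 CPM in serum and 456.2, 375.1 and 428.3 CPM in 2i. The media separated in J1 and overlapped in 3B3-3l, and the fall was 0.36 ± 0.099 in J1 (adjusted p = 0.00523) against a change of -0.10 ± 0.099 in 3B3-3l (adjusted p = 0.374). The 2 responses differed by 0.25 ± 0.14, which did not pass the test (adjusted p = 0.186). With transcript lengths as offsets the J1 change was -0.745 (adjusted p = 9.4e-06), the 3B3-3l change was -0.25 (adjusted p = 0.0343, over a range of 0.0343 to 0.925 among the alternatives) and the difference between the responses was 0.49 (adjusted p = 0.0134, range 0.0134 to 0.369), so that all 3 passed.

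Tet2 (chromosome 3, 133463677 to 133545136, ENSMUSG00000040943) rose in both lines. Its levels were 104, 97.31 and 97.58 CPM in J1 serum and 180.3, 197.6 and 149.1 CPM in J1 2i. In 3B3-3l they were 79.64, 86.52 and 92.19 CPM in serum and 186.6, 165.8 and 175.1 CPM in 2i. All 2i libraries lay above all serum libraries, with a 1.76-fold rise in J1 (adjusted p = 3.62e-07) and a 2.04-fold rise in 3B3-3l (adjusted p = 2.28e-08). The responses differed by 0.21 ± 0.119 (adjusted p = 0.186).

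Tet1 and Tet2 had the largest standard errors of the 9 members in the comparisons of media, and their spread was widest in J1 2i. J1 2i replicate 2 lay above its group mean by 0.23 (Tet1) and 0.18 (Tet2) on the log2 scale, and replicate 3 lay at -0.21 and -0.23. The 142 genes with an average effective length of at least 9000 bases deviated the same way, with medians of 0.12 in replicate 2 and -0.15 in replicate 3, where the medians of all genes compared were -0.02 and 0.02. Tet3 moved by 0.03 and -0.06 in the same libraries. In 3B3-3l serum, replicate 3 lay at 0.174 (Tet1) and 0.101 (Tet2), and replicate 1 at -0.134 and -0.11. The long genes had medians of 0.099 and -0.085 in these 2 libraries, and Tet3 lay at 0.076 and 0.091. The part of transcript length in the spread was not tested. Without J1 2i replicate 2, the differences between the lines in the response of Tet1 (0.37, adjusted p = 0.0273) and Tet2 (0.31, adjusted p = 0.0398) passed the test.

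Tet3 (chromosome 6, 83362373 to 83457208, ENSMUSG00000034832) was the member in which the lines parted. It had the lowest TET level per transcript length, and in CPM it stood at 13.33, 12.44 and 13.33 CPM in J1 serum and 14.17, 11.85 and 14.03 CPM in 3B3-3l serum, so that the serum ranges overlapped. In J1 2i it stood at 19.62, 19.58 and 18.41 CPM, above every serum library. In 3B3-3l 2i it stood at 6.66, 6.232 and 6.704 CPM, below every serum library, from 260 to 277 estimated reads. It rose 1.47-fold in J1 (adjusted p = 5e-06) and fell to 0.489 of its serum level in 3B3-3l (adjusted p = 9.62e-09). The difference between the 2 responses was -1.59 ± 0.108 on the log2 scale (adjusted p = 5.31e-08), and it stayed between -1.67 and -1.54 when any library was left out. Of the members, Tet3 and Mbd4 passed this test of the difference (2 of 9, beside 34.7% of genes tested), both with the lower response in 3B3-3l (18.3% of genes) and none with the higher response (16.3% of genes).

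As shares of the summed length-scaled TET level, Tet1 declined and Tet2 gained in 2i. Tet1 made up 80.8% ± 0.952 in J1 serum and 59.2% ± 0.544 in J1 2i, and 81.3% ± 0.212 and 66.3% ± 0.8 in 3B3-3l. Tet2 made up 17.3% ± 0.905 and 37.3% ± 0.314 in J1, and 16.5% ± 0.232 and 32.7% ± 0.742 in 3B3-3l. Over both lines the Tet1 share decreased by 18.3 points and the Tet2 share rose by 18.1 points, each with p = 0.005 by the exact permutation test and an adjusted p of 0.0133. The 3 shares make up a whole of which Tet3 held little, so the Tet1 and Tet2 tests are close to 1 result. They also use the libraries of the fold changes above and are not separate evidence. Tet3 held 1.9% in J1 serum, 3.48% in J1 2i, 2.17% in 3B3-3l serum and 1.02% in 3B3-3l 2i, and its mean difference over both lines was 0.216 points (exact permutation p = 0.615). That test averages the 2 lines, in which the Tet3 share moved in opposite directions, so it cannot show a change within a line. Between lines, 3B3-3l minus J1, Tet1 differed by 3.78 points (exact permutation p = 0.03, adjusted p = 0.048) and Tet2 by -2.68 points (exact permutation p = 0.01, adjusted p = 0.02). Only 1 of these 2 calls remained without J1 serum replicate 2 or without any 1 of the 3 libraries of 3B3-3l serum. The serum shares of both genes overlapped between the lines. The summed TET level was 64 ± 4.53 CPM per kb in J1 serum, 52.3 ± 7.46 in J1 2i, 57.8 ± 3.48 in 3B3-3l serum and 59.7 ± 4.35 in 3B3-3l 2i. The media overlapped in 3B3-3l, while in J1 the highest 2i library (58.7) lay just under the lowest serum library (58.9). These levels and shares also count short Tet1 models that hold few reads. In J1 serum, Tet1-004 (1197 bases) held 26.3% of the Tet1 TPM from a mean of 559 estimated reads. Tet1-001 (14369 bases) held 60.5% from 17700. In J1 2i they held 14.3% from 194 and 80.8% from 15300. The part of short models in the J1 values was not tested.

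**Figure D3:**
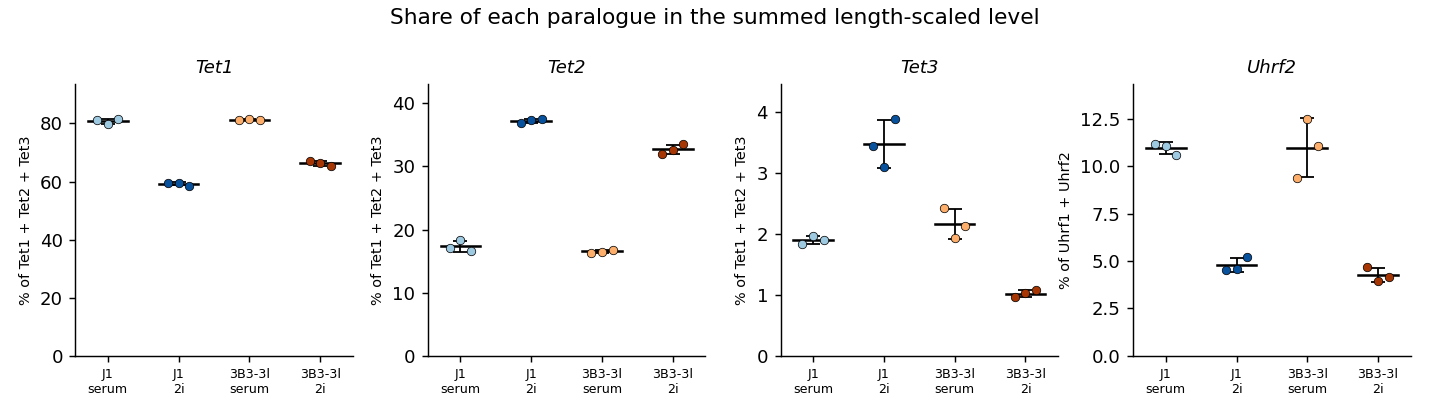
Share of Tet1, Tet2 and Tet3 in their summed level per transcript length, and of Uhrf2 in the sum of Uhrf1 and Uhrf2, in percent, by library with the group mean and SD (n = 3). Mean Tet1 shares are 80.8% (serum) and 59.2% (2i) for J1, and 81.3% and 66.3% for 3B3-3l, with Tet2 moving the opposite way and Tet3 at no more than 3.89% in any library.

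The 2 glycosylases of the pathway responded in opposite directions. Tdg (chromosome 10, 82629814 to 82650799, ENSMUSG00000034674) was read at 86.38, 85.33 and 82.27 CPM in J1 serum and at 70.77, 66.61 and 71.53 CPM in J1 2i. The 3B3-3l libraries held 80.37, 82.81 and 77.72 CPM in serum and 59.15, 60.21 and 56.03 CPM in 2i. Every 2i library lay below every serum library of its line, with falls of 0.28 ± 0.049 (adjusted p = 9.47e-05) and 0.46 ± 0.049 (adjusted p = 5.29e-07) on the log2 scale. The responses differed by -0.18 ± 0.069, which did not pass the test (adjusted p = 0.0608). This difference passed in 6 alternatives: with at least 10 counts in every library (adjusted p = 0.0208), with length offsets (adjusted p = 0.0395), and without J1 serum replicate 1 or 2, J1 2i replicate 2 or 3B3-3l 2i replicate 2, over a range of 0.0208 to 0.18. With length offsets the J1 change was -0.182 on the log2 scale (adjusted p = 0.0121).

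Mbd4 (chromosome 6, 115840697 to 115853400, ENSMUSG00000030322) rose in both lines and rose more in J1. It stood at 23.36, 26.25 and 24.93 CPM in J1 serum and 45.43, 49.51 and 42.92 CPM in J1 2i. In 3B3-3l it stood at 26.23, 24.59 and 27.17 CPM in serum and 35.34, 33.32 and 32.75 CPM in 2i, so the serum groups overlapped and the 2i groups did not. The fold was 1.85 in J1 (adjusted p = 6.9e-09) and 1.3 in 3B3-3l (adjusted p = 0.000102). The difference of -0.51 ± 0.093 passed the test (adjusted p = 0.000603) and lay between -0.58 and -0.45 with any library left out.

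The lines were then compared within each medium. In serum, 2 of the 9 members were called between 3B3-3l and J1, Uhrf1 and Uhrf2, beside 38.7% of genes, and both were higher in 3B3-3l (21.5% of genes; none was lower, beside 17.2%). The Uhrf2 difference of 0.20 ± 0.06 (adjusted p = 0.0166) was lost on leaving out J1 serum replicate 2 (0.14, adjusted p = 0.0895), 3B3-3l serum replicate 2 (0.17, adjusted p = 0.0757) or 3B3-3l serum replicate 3 (0.18, adjusted p = 0.0538), and with length offsets (0.22, adjusted p = 0.0727). Tet2 did not pass in serum (-0.21 ± 0.085, adjusted p = 0.0625), although its ranges did not overlap between the lines and 6 alternatives called it, the smallest adjusted p being 0.00738. In 2i, 4 members were called, beside 45.9% of genes. Usp7 was higher in 3B3-3l by 0.29 ± 0.054 (adjusted p = 0.000317; 23% of genes were higher). Tet3, Mbd4 and Tdg were lower in 3B3-3l, with log2 differences of -1.56 ± 0.077, -0.44 ± 0.064 and -0.25 ± 0.049 (adjusted p = 5.76e-10, 3.99e-05 and 0.000558; 22.9% of genes were lower). Tet1 did not pass in 2i (0.21 ± 0.099, adjusted p = 0.0987). It passed there with length offsets (adjusted p = 0.00751), with no filter on low counts (adjusted p = 0.0366) and without J1 2i replicate 2 (adjusted p = 0.00738). Usp7 did not pass in serum (0.11 ± 0.054, adjusted p = 0.111), but did with length offsets (adjusted p = 0.0486) and without 3B3-3l serum replicate 1 (adjusted p = 0.0235). Dnmt1 differed by 0.02 ± 0.049 in serum and 0.05 ± 0.048 in 2i and was called in neither. The median absolute difference of the 9 members was 0.08 in serum and 0.21 in 2i, where that of all genes was 0.23 and 0.27. The 2i comparison shares its libraries with the comparisons of media, so these values are not separate evidence.

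Levels were compared between genes after division by transcript length, as CPM per kb of effective length. In J1 serum, Uhrf1 (123.4 ± 3.11) and Usp7 (122.2 ± 1.3) led and overlapped each other. Tet1 (51.7 ± 4.18) and Tdg (48.3 ± 0.947) came next and also overlapped. Uhrf2 (15.22 ± 0.323), Tet2 (11.06 ± 0.422), Mbd4 (7.797 ± 0.463) and Tet3 (1.214 ± 0.0484) followed without overlap. In J1 2i, Uhrf1 alone led at 265.7 ± 2.17, Usp7 stood at 111.5 ± 8.07, and Tet2 (19.51 ± 2.75) had passed Uhrf2 (13.36 ± 1.18). The order in 3B3-3l 2i began the same way, with Uhrf1 at 283.4 ± 3.78 and Usp7 at 133.9 ± 0.774, and ended with Tet3 at 0.6082 ± 0.0246. For Dnmt1 65.29% of the reads lay in a transcript that could be assigned to the gene, so its levels, 44.94 ± 2.22 in J1 serum and 58.23 ± 1.73 in J1 2i, are lower bounds.

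Changes within genes were looked for in the shares that transcripts hold in the TPM of their gene, with transcript names from GENCODE M1. Tet2 and Tet3 each had a transcript with at least 99.56% of the gene, and Dnmt1 was left out because part of its reads could not be placed. For the other 6 genes, 22 transcripts with a mean share of at least 5% in a group gave 44 exact permutation tests, of which 8 between media and 1 between lines had an adjusted p under 0.05. Transcripts of other genes were not tested, so whether these counts are unusual for the change of medium or line is not known. Uhrf1-003, a coding form, fell by 5.55 points of share in 2i. It held 8.42%, 8.05% and 9.71% of Uhrf1 in J1 serum and 4.56%, 3.37% and 2.98% in J1 2i. In 3B3-3l it held 9.3%, 9.14% and 8.43% in serum and 2.54%, 3.04% and 3.24% in 2i, without overlap in either line.

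Tdg-002, also a coding form, fell by 4.83 points. It held 15.5% ± 0.686 of Tdg in J1 serum, 11.5% ± 1.09 in J1 2i, 16.9% ± 2.66 in 3B3-3l serum and 11.3% ± 0.543 in 3B3-3l 2i. Tet1-004, a short coding model of 1197 bases, fell by 9.58 points. It held 26.3% ± 3.82 of the Tet1 TPM in J1 serum, 14.3% ± 3.54 in J1 2i, 25.4% ± 0.61 in 3B3-3l serum and 18.3% ± 1.68 in 3B3-3l 2i. Tet1-001, the long form of 14369 bases, gained 13.9 points of TPM and 1.58 points of estimated reads, with no call for the reads (adjusted p = 0.129). Usp7-004, a model without a coding sequence, gained 4.05 points, and Uhrf2-007, a retained intron read at 5.21 to 34.6 estimated reads a group, gained 6.66. Uhrf1-003, Tdg-002, Tet1-004, Usp7-004 and Uhrf2-007 each had p = 0.005 by the exact permutation test, the smallest possible, and an adjusted p of 0.0367. All 8 calls between media were lost when any 1 of the 3 libraries of 3B3-3l 2i was left out, with the differences themselves of the same sign. The call between lines, Uhrf1-001 with -5.16 points (exact permutation p = 0.01, adjusted p = 0.0489), was lost in most fits that left out a library.

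**Figure D4:**
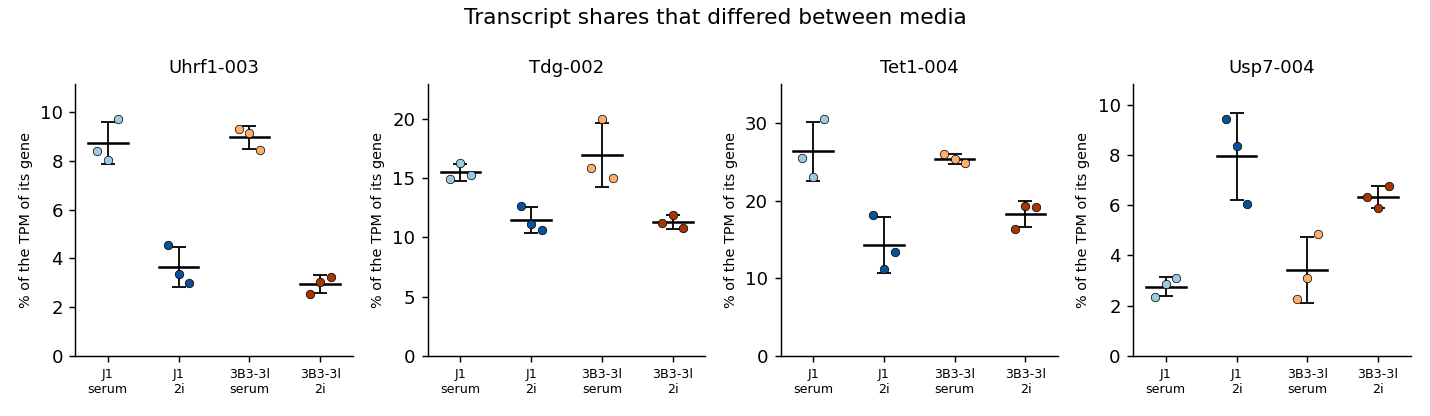
Share of 4 transcripts in the TPM of their gene, in percent, by library with group mean and SD (n = 3). Uhrf1-003, Tdg-002 and Tet1-004 lie lower in 2i than in serum in both lines, and Usp7-004 lies higher, at 5.89% to 9.43% in 2i against 2.28% to 4.87% in serum.

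The genes around the members were described from lists of known partners. Among 12 partners of maintenance, 4 were called higher and 5 lower in J1 2i (33.2% and 32.9% of all genes), and 4 were called higher and 4 lower in 3B3-3l 2i (32.7% of all genes in each direction). Dppa3, also known as Stella, which binds UHRF1 and keeps it from chromatin, fell in both lines, with 38.98 ± 2.26 CPM in J1 serum against 8.188 ± 0.287 in 2i and 44.83 ± 1.27 CPM in 3B3-3l serum against 4.813 ± 0.636 in 2i. The 2 responses differed by -0.97 ± 0.112 on the log2 scale, 3B3-3l minus J1 (adjusted p = 9.31e-06). Lig1, the ligase that joins Okazaki fragments, rose in J1 by 0.37 ± 0.054 (adjusted p = 1.47e-05). Cdca7l, a relative of the HELLS partner CDCA7, held 44.92 ± 1.49 CPM in J1 serum against 34.97 ± 1.96 in 2i and 34.97 ± 1.38 CPM in 3B3-3l serum against 17.08 ± 0.246 in 2i, a difference in response of -0.67 ± 0.079 (adjusted p = 1.14e-05).

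Of 12 base excision repair genes, 7 were called higher and 2 lower in J1 2i (33.2% and 32.9% of all genes), and 7 were called higher and 3 lower in 3B3-3l 2i (32.7% of all genes in each direction), with medians of 0.24 and 0.21 beside 0.01 for all genes in each line. The glycosylases Ogg1, for oxidised guanine, and Smug1, for uracil and hydroxymethyluracil, rose in J1 by 1.16 ± 0.075 (adjusted p = 1.47e-09) and 0.82 ± 0.055 (adjusted p = 2.12e-09). Neil2, a glycosylase that can act after TDG, rose in J1 (10.68 ± 0.972 CPM in serum, 12.77 ± 1.35 in 2i) and fell in 3B3-3l (9.836 ± 0.314 CPM in serum, 7.782 ± 0.944 in 2i), a difference of -0.60 ± 0.142 (adjusted p = 0.00419). Polb, the repair polymerase, fell in J1 (31.36 ± 1.38 CPM in serum, 21.8 ± 0.57 in 2i), and its response in 3B3-3l was higher by 0.48 ± 0.081 (adjusted p = 0.000308).

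Of 12 TET cofactors and partners, 5 were called higher and 5 lower in J1 2i (33.2% and 32.9% of all genes), and 3 were called higher and 5 lower in 3B3-3l 2i (32.7% of all genes in each direction). The GADD45 genes, whose products have been linked to TDG and demethylation, gave the 3 named genes of this list. Gadd45g held 5.296 ± 0.724 CPM in J1 serum against 0.4799 ± 0.152 in 2i and 19.2 ± 1.4 CPM in 3B3-3l serum against 0.3323 ± 0.0912 in 2i, a difference in response of -2.39 ± 0.321 (adjusted p = 4.09e-05). Gadd45a fell in J1 by 1.66 ± 0.061 on the log2 scale (adjusted p = 1.58e-12). Gadd45b stood at 12.95 ± 2.12 CPM in J1 serum and 13.23 ± 0.729 in J1 2i, and fell in 3B3-3l (15.81 ± 1.02 CPM in serum, 8.921 ± 0.738 in 2i), with a difference of -0.86 ± 0.147 (adjusted p = 0.000351).

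Of 7 methyl-CpG readers, 3 were called higher and 3 lower in J1 2i (33.2% and 32.9% of all genes), and 5 were called higher and 2 lower in 3B3-3l 2i (32.7% of all genes in each direction). Mbd2, which binds methylated CpG, rose in J1 by 0.59 ± 0.076 (adjusted p = 4.35e-06). Mbd3, a NuRD subunit that does not need the methyl mark, fell in J1 by 0.60 ± 0.071 (adjusted p = 1.66e-06). Mbd1 stood at 12.08 ± 0.415 and 10.54 ± 0.266 CPM in J1 serum and 2i and at 10.24 ± 0.393 and 14.89 ± 0.753 CPM in 3B3-3l, a difference of 0.74 ± 0.092 (adjusted p = 1.97e-05). Zbtb38, a zinc finger reader, responded more in 3B3-3l by 0.63 ± 0.091 (adjusted p = 7.7e-05). Of 3 methyl donor genes, Mat2b and Ahcy fell in J1 by 0.22 ± 0.054 (adjusted p = 0.00196) and 0.43 ± 0.182 (adjusted p = 0.0469), while the responses of Mat2a and Mat2b were higher in 3B3-3l by 0.43 ± 0.093 (adjusted p = 0.00242) and 0.21 ± 0.077 (adjusted p = 0.0453). Ahcy has near-identical copies in the mouse genome, among which reads could be split, and its libraries ranged from 14 to 26.53 CPM in J1 serum.

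**Figure D5:**
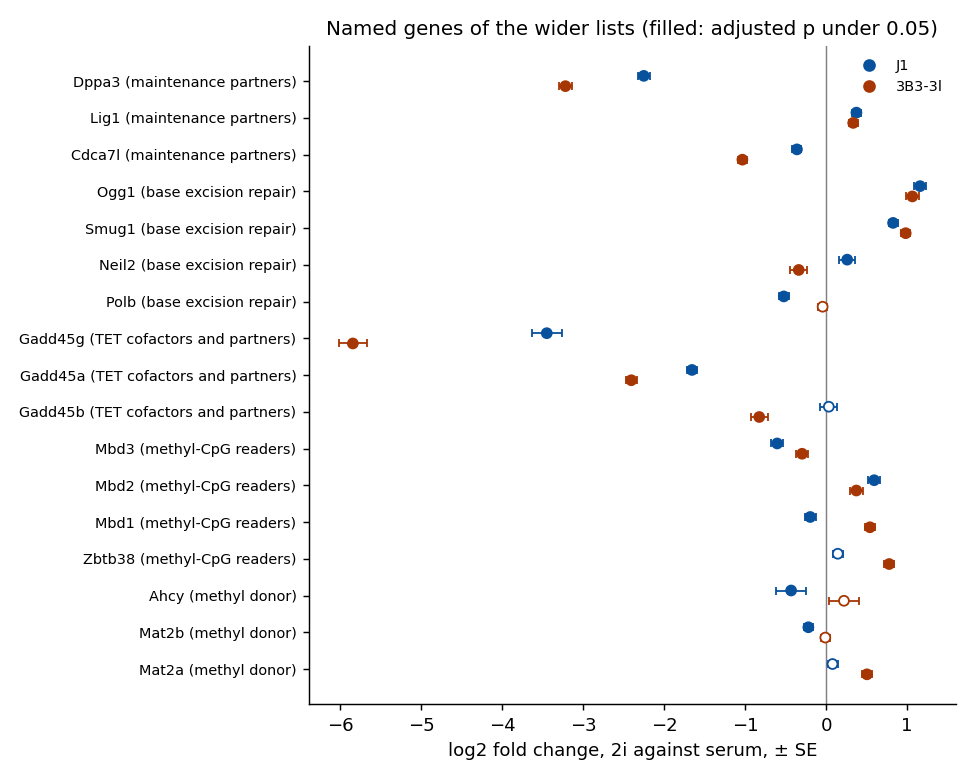
Log2 fold change of 2i against serum with SE for the named genes of 5 lists, in J1 and 3B3-3l; filled points have an adjusted p under 0.05. Gadd45g (-3.45 in J1 and -5.84 in 3B3-3l) and Dppa3 (-2.25 and -3.22) lie farthest to the left, and Ogg1 (1.16 and 1.06) farthest to the right.

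The 3 members with the widest range of group means on the log2 CPM scale were Tet3 (1.55), Uhrf1 (1.20) and Tet2 (1.03). Over the 12 libraries and 10135 other genes, the profiles most like Tet3 were those of Repin1 (Pearson r = 0.978), Ppfibp1 (r = 0.973) and Edem1 (r = 0.972), and 20 genes reached an r of 0.95. For Uhrf1 they were Pdgfa (r = 0.999), Nt5e (r = 0.998) and Rab11fip5 (r = 0.998), and 791 genes reached that r. For Tet2 they were Elovl6 (r = 0.993), Slc23a2 (r = 0.992) and Trps1 (r = 0.991), with 272 genes. These correlations share the 4 groups and their libraries, so they describe group patterns and carry no test. Slc23a2, a vitamin C transporter, was itself on the list of TET cofactors and partners.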

How the data were processed

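Poly(A) RNA from 12 mESC libraries (2 lines, 2 media, 3 biological replicates each) was analysed, grouped and numbered as labelled. Stranded reads were assigned to mm10 transcript models by the authors with Sailfish, using strand, and they deposited for each library TPM and estimated counts per transcript, and a tximport table of estimated counts per gene that is not scaled by depth or length. The identifiers in the files are Ensembl ones, although RefSeq models are named in the methods. Sequencing pools are not in the labels, so a pool effect was not assessed.

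Estimated counts were rounded and tested with edgeR (version 4.0.16, R 4.3.3): filterByExpr left 17885 genes, TMM factors were 0.97 to 1.038, and a quasi-likelihood fit to 12 libraries gave 5 contrasts. The threshold was 0.05 after Benjamini-Hochberg adjustment across the whole table. Each adjusted p printed for a gene comes from edgeR unless DESeq2 is named beside it, while ranges over alternatives also hold DESeq2 values. The biological coefficient of variation was 6.49%, and the 3-count floors cover counting error only. The fit and the permutation test were tested on simulated data. DESeq2 (version 1.42.0) and other alternatives were run.

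Length-scaled levels are estimated transcript counts divided by effective length in kb and by TMM-scaled library size, as in CPM. Transcripts were assigned to genes with the GENCODE M1 annotation (90.4% of transcripts, 96.5% of reads). Shares were tested by exact two-sided permutation of media within lines, or lines within media. Promoters and coordinates are from RefSeq (GRCm38.p6), matched by symbol.

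Replicate numbers did not pair the libraries: correlations of same-numbered deviations ran from -0.472 to 0.203. Those of differently numbered libraries in different groups ran from -0.677 to 0.677, the highest for J1 2i replicate 2 with 3B3-3l serum replicate 3. What such libraries share was not tested. Named genes were the 9 members, 3 edited genes and, from 5 wider lists, the 2 called genes with the largest change in J1 2i and the 2 in the difference between lines, with at least 10 CPM in the highest group; Rrm2, Ccne1, Mcm7 and Ift122 were named after their values were seen. The members and lists were chosen with earlier results of these data known.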

Additional observations from a re-analysis of the deposited data

Results flagged for a closer look

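The response of Tet3 to 2i differed between the lines by -1.59 ± 0.108 (SE) on the log2 scale, 3B3-3l minus J1, by the test of the difference itself (edgeR adjusted p = 5.31e-08). The gene rose in each of 3 J1 2i libraries above all J1 serum libraries and stood in each of 3 3B3-3l 2i libraries below all 3B3-3l serum libraries. The response of Mbd4 differed by -0.508 ± 0.093 (adjusted p = 0.000603), with a rise in both lines that was smaller in 3B3-3l. Groups of 3 libraries were not examined for single outlying values. The cause of either difference was not tested.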

How the results depend on the processing

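The 9 members were called in J1 2i and 7 in 3B3-3l 2i under every other normalisation, filter and test except transcript length offsets, which gave 7 and 8. The response difference was called for 2 members, for 4 with transcript length offsets and for 6 without J1 2i replicate 2, over a range of 2 to 6 as single libraries were left out. The count between lines in serum was 2, with a range of 1 to 3 (1 without J1 serum replicate 2 or 3B3-3l serum replicate 2). With the replicate number as a block the 5 counts of called members did not change, all genes called in J1 2i numbered 11543, and family shares gave 0 calls for media and 0 for lines, where its 64 arrangements could not reach the adjusted threshold. The called family shares were 3 for media in every library left out and 1 to 2 for lines, with the linked Tet1 and Tet2 shares counted separately. Transcript calls ranged from 0 to 9 for media and 0 to 2 for lines as libraries were left out, and a minimum mean share of 1% gave 0 for lines. Of the members' log2 changes, 792 of 846 kept their direction and side of the threshold, 26 passed it newly, 6 no longer passed and 22 turned sign. Of the share differences, 295 of 364 kept both, 64 no longer passed, 1 passed newly and 4 turned sign. The values that turned sign belong to comparisons that had not passed the test. With other settings these were Dnmt1 between lines in serum (-0.008 with no filter on low counts and -0.008 with only the 6 libraries compared), Tdg there (0.012 with length offsets), Uhrf2 between lines in 2i (-0.073 with length offsets), Tet2 there (-0.006 with DESeq2 size factors, -0.006 with the DESeq2 Wald test, -0.014 with no filter, -0.026 with at least 10 counts in every library, -0.013 with only 6 libraries) and the Tet3 share in 2i (-0.0646 with counts not divided by length). With single libraries left out, the ranges were -0.094 to 0.005 for Usp7 in 3B3-3l 2i, -0.037 to 0.049 for Dnmt1, -0.131 to 0.024 for Tet1 and -0.012 to 0.114 for Tet3 between lines in serum, -0.104 to 0.094 for Tet2 between lines in 2i, and -0.024 to 0.063 for the difference of the Dnmt1 responses. Between lines they were -0.636 to 0.13 for the Uhrf2 share, -0.13 to 1.12 for Tdg-002 and -0.404 to 0.00994 for Uhrf1-003. Tet3 and Mbd4 kept their calls under every alternative run. The cause of these changes was not tested.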

Other observations

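Mbd4 shares its start region with Ift122, a gene of ciliary transport, and the RefSeq gene bodies overlap by 22 bases (chromosome 6, Ift122 at 115853379 to 115926699). Ift122 was looked at because of this overlap, after the values of Mbd4 had been seen. In J1 its level was 12.3 ± 0.106 CPM with serum and 19 ± 2.57 CPM with 2i, a rise of 0.63 ± 0.086 on the log2 scale (edgeR adjusted p = 8.7e-06). The 3B3-3l levels were 17.1 ± 0.581 CPM with serum and 17.9 ± 1.25 CPM with 2i, a change of 0.07 ± 0.084 that did not pass the test (adjusted p = 0.494). The 2 responses differed by -0.56 ± 0.12, 3B3-3l minus J1 (adjusted p = 0.00211), and unlike Mbd4 its serum libraries did not overlap between the lines. Reads were counted by strand, and how far the 2 genes share reads was not tested.

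Summed levels of lineage markers were also read. The summed level of 6 mesoderm and primitive streak markers was 4.5 to 6.27 CPM in serum and 28.2 to 45.1 CPM in 2i over both lines. That of 4 neural markers was 107 to 161 CPM in serum and 23.9 to 52.3 CPM in 2i. That of 6 primitive endoderm markers was 8.54 to 17.1 CPM in serum and 6.32 to 8.45 CPM in 2i, and that of 6 trophoblast markers overlapped between media in J1 (156 to 167 CPM in serum, 165 to 191 CPM in 2i) and was lower in 2i in 3B3-3l (241 to 291 CPM in serum, 179 to 186 CPM in 2i). No test was made on these sums, and some markers moved against the sum of their list. Mesoderm and streak markers gave 4 calls higher and 1 lower in 2i in each line. Primitive endoderm markers gave 2 higher and 1 lower in J1, and 4 lower in 3B3-3l. Trophoblast markers gave 2 higher and 3 lower in each line, and neural markers 3 lower in each. Of all genes, 33.2% were called higher and 32.9% lower in J1 2i, and 32.7% in each direction in 3B3-3l 2i.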
